A study of Mus musculus with 9 samples.

Results

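The genes described here are 10 that encode the products and regulators of airway goblet cells, the mucus-secreting cells of the airway lining. They were Muc5ac, Muc5b, Clca1, Spdef, Foxa3, Agr2, Tff1, Tff2, Fcgbp and Itln1, taken by name from the 34638 genes of the deposited table. Each was found once. Whole lung of wild-type C57BL/6 mice was sequenced in 3 groups of 3. PBS mice received phosphate buffered saline. IL-33 mice received recombinant mouse IL-33 into the trachea, 0.5 µg per mouse on each day from day 0 to day 3. IL-33+LM8 mice received the same IL-33 and, before it, LM8 into the peritoneum at 10 mg/kg. LM8 is described by the submitters as an inhibitor of MyD88, the adaptor through which the IL-33 receptor signals. By the study's methods the PBS and IL-33 mice were females of 6 to 8 weeks and their lungs were taken on day 4. The sex, age and day of harvest of the IL-33+LM8 mice, and the vehicle of LM8, are not given in the sources used here. No group given LM8 alone or its vehicle is among the samples, so the drug and its injection cannot be told apart.

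In the mouse airway, secretory club cells can turn into goblet cells under interleukin-13, a cytokine made by innate lymphoid cells and T helper cells. Interleukin-13 acts through STAT6, and the transcription factors SPDEF and FOXA3 then take part in switching on mucin genes and the machinery that folds and exports mucins. MUC5AC and MUC5B are the gel-forming mucins of airway mucus, and the other proteins considered here are stored or secreted with them or help to fold them.

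Between 53877663 and 90607218 reads per mouse were counted on genes, the deepest library being IL-33+LM8 replicate 3. Levels are given as FPKM, in which a count is divided by the gene's length and the depth of its library, and changes as log2 fold changes with their standard error (SE) from edgeR's quasi-likelihood test on counts. A gene was called higher or lower where the Benjamini-Hochberg adjusted p was under 0.05 and the log2 fold change reached 1 or -1. Testing was limited to genes averaging 0.5 FPKM or more, which kept 9 of the 10 genes and left out Foxa3. With 3 mice against 3, an exact two-sided permutation test of 1 gene cannot give a p under 0.1. All 10 genes had this p between IL-33 and PBS, as does any gene whose groups do not overlap. Of 16831 genes tested, 5338 lay wholly higher and 5338 wholly lower with IL-33. Markers of lung alveoli and vessels were abundant, with a summed FPKM from 6324 to 14232 over 6 genes in the 9 mice.

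IL-33 raised nearly all of the goblet cell genes. Of the 9 tested, 8 were called higher in IL-33 than in PBS mice, against 10.8% of all 16831 genes tested, and none was called lower, against 6.24%. Their median log2 fold change was 4.69, where that of all genes was -0.01. The FPKM of every IL-33 mouse lay above that of every PBS mouse for all 10, Foxa3 included, a pattern shown by 31.7% of the genes tested. The gene not called was Tff2. Muc5ac, Fcgbp, Tff1 and Itln1 averaged 0.177, 0.380, 0 and 0.0435 FPKM in PBS mice. They passed the minimum of 0.5 FPKM only through the mice given IL-33, so their calls are not independent of the filter. With no filter on FPKM, 9 of the goblet cell genes and 3343 of all genes were called. Together the 10 genes took between 0.00863% and 0.0146% of the counts in PBS mice and between 0.214% and 0.234% in IL-33 mice.

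Most of this rise was also present with LM8. In IL-33+LM8 mice all 9 tested genes were called higher than in PBS mice, against 5.87% of 16829 genes. All 9 were higher in every mouse, against 23.4%. The same limit of the filter applies to these counts. In IL-33+LM8 mice the 10 genes took between 0.237% and 0.245% of the counts. Clca1 carries this sum. It took 0.153% to 0.169% of the counts in IL-33 mice and 0.187% to 0.191% in IL-33+LM8 mice, whereas the other 9 genes together took 0.0586% to 0.0652% and 0.050% to 0.0539%, lower in each IL-33+LM8 mouse than in each IL-33 mouse. Compared with IL-33 mice, 2 of the 9, Muc5ac and Tff1, were called lower, against 3.93% of all genes, and none was called higher, against 1.46%. Itln1 missed the minimum fold change, but all 3 of these genes were lower in every IL-33+LM8 mouse than in every IL-33 mouse, against 22% of the genes tested. Without that minimum, 4 of the 9 had an adjusted p under 0.05 in this comparison, against 26.5% of all genes, and the fourth, Clca1, was higher. The median log2 fold change of the 9 genes was -0.10, and that of all genes -0.01. The comparisons share mice with each other, so they are given side by side and not as independent results. In whole lung, fewer goblet cells and less RNA per cell cannot be told apart.

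**Figure D1:**
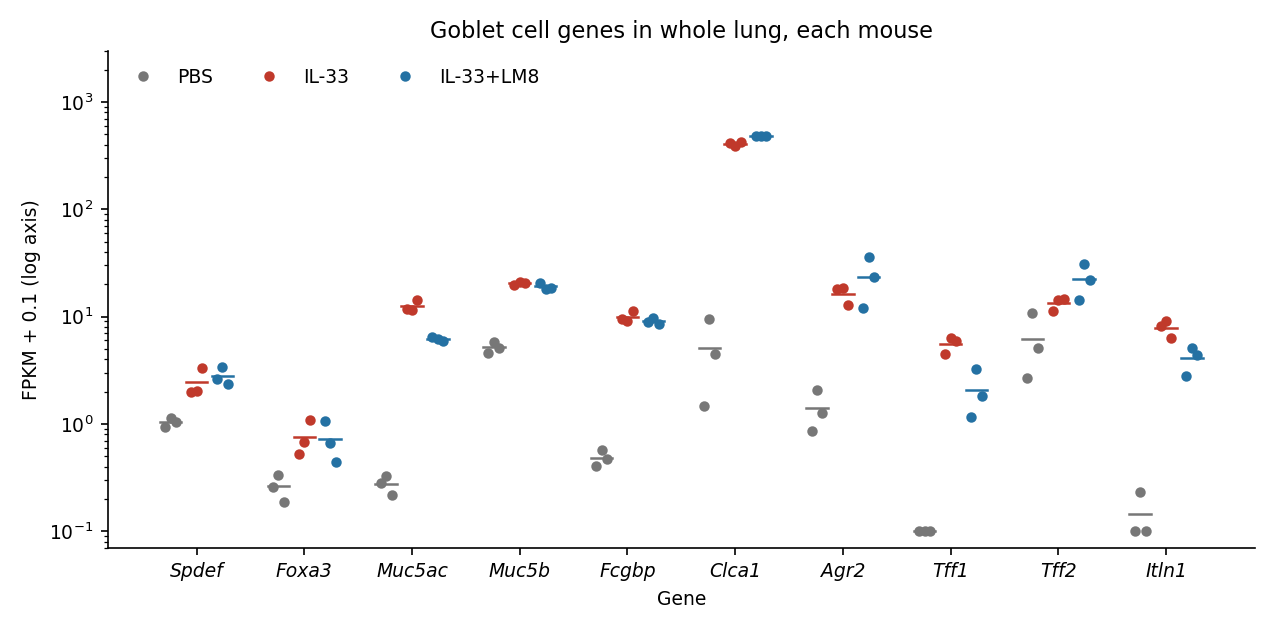
Level of each of the 10 genes in each mouse, as FPKM with 0.1 added on a log axis. Points are mice, 3 in each group, and short lines are group means. All 10 genes are higher in every IL-33 mouse than in every PBS mouse, and Muc5ac, Tff1 and Itln1 are lower in every IL-33+LM8 mouse than in every IL-33 mouse.

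Spdef encodes an ETS-family transcription factor required for goblet cell differentiation in the airway. By the positions in the deposited table, used here for all 10 genes, it spans 27933326 to 27947929 on the minus strand of chromosome 17. Its level was 0.838, 1.04 and 0.946 FPKM in the PBS mice, 1.89, 1.93 and 3.20 FPKM after IL-33, and 2.54, 3.27 and 2.25 FPKM after IL-33 with LM8. Both IL-33 groups lay wholly above the PBS group, and they overlapped each other. The rise with IL-33 was 2.49 ± 0.84-fold in mean FPKM (propagated SD), with a log2 fold change of 1.31 (SE 0.26, adjusted p = 0.0039). IL-33+LM8 mice were above PBS mice by a log2 fold change of 1.52 (SE 0.20, adjusted p = 0.0018). Against IL-33 alone the log2 difference was 0.20, with a 95% interval from -0.41 to 0.81 that leaves room for a moderate change either way.

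Foxa3 encodes a forkhead factor that is induced with goblet cells. It was the lowest of the 10 genes in IL-33 mice, on the minus strand of chromosome 7 from 18747209 to 18757463. Its level was 0.161, 0.234 and 0.0889 FPKM in PBS mice, from 14 to 31 counts, and 0.421, 0.575 and 0.992 FPKM in IL-33 mice, from 59 to 114 counts. IL-33+LM8 mice had 0.960, 0.568 and 0.338 FPKM. The 3 values in either IL-33 group differed by more than the means of those groups, 0.663 ± 0.295 FPKM (SD, n = 3) and 0.622 ± 0.314 FPKM (SD, n = 3). Under edgeR's own count filter, which admits this gene, the log2 fold change was 2.04 for IL-33 against PBS (SE 0.51, adjusted p = 0.016) and 1.96 for IL-33+LM8 against PBS (SE 0.53, adjusted p = 0.038, or 0.051 with no filter at all). Between IL-33+LM8 and IL-33 it was -0.07, with a 95% interval from -1.20 to 1.06. The related forkhead genes Foxa1 and Foxa2, which are expressed in resting airway epithelium, were more abundant than Foxa3 in each group and had log2 fold changes of -0.31 (SE 0.22) and -0.37 (SE 0.29) with IL-33, neither of them called.

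RefSeq promoters (GRCm38.p6, 250 bases before to 50 after the start site) were at hand for 5 of the 10 genes, Itln1, Foxa3, Fcgbp, Agr2 and Spdef. They were searched on both strands for a STAT6-type site (TTC and GAA with 4 bases between), a STAT-type site (the same with 3 between), the forkhead cores TGTTTAC and TGTTTGC, and the ETS cores CCGGAA and AGGAAG, none of which overlapped another in these promoters. Only AGGAAG was found, in Spdef and Fcgbp, and this hexamer occurs in 35.4% of all 32851 promoters. The STAT6-type site occurs in 6.95% of them, the STAT-type site in 8.3%, TGTTTAC in 3.65%, TGTTTGC in 5.07% and CCGGAA in 14.9%. Both promoters are printed 5′ to 3′ on the gene's strand because one is that of the goblet cell factor and the other that of a gene that rose strongly. Capitals mark AGGAAG or its reverse complement. In Spdef they start at -40 and 18 relative to the start site, and in Fcgbp at -96.
Spdef, chr17:27728902-27729201, minus strand: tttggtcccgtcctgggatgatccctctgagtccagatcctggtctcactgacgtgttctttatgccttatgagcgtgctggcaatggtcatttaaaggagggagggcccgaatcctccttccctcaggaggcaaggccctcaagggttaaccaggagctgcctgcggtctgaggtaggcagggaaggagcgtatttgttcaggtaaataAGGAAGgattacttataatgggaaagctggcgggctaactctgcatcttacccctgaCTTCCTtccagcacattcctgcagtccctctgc
Fcgbp, chr7:28070986-28071285, plus strand: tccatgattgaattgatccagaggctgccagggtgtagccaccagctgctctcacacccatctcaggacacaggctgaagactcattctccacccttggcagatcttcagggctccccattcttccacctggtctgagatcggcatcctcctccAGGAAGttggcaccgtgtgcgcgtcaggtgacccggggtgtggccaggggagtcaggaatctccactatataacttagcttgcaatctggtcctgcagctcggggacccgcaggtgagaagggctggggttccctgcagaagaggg
These positions are those of GRCm38.p6. They cannot be set beside the positions given for the genes, since in the deposited table none of the 10 genes starts within 1000 bases of its GRCm38.p6 start.

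Muc5ac and Muc5b are neighbours on chromosome 7, plus strand, from 141342709 to 141372968 and from 141392807 to 141426821, with 19838 bases between them. MUC5AC is the mucin of goblet cells in inflamed airways. Muc5ac was nearly silent in PBS mice, at 0.184, 0.229 and 0.116 FPKM, and stood at 11.8, 11.5 and 14.2 FPKM in IL-33 mice. IL-33+LM8 mice had 6.42, 6.06 and 5.79 FPKM. The 3 groups did not overlap, and the highest IL-33+LM8 mouse was well under the lowest IL-33 mouse. IL-33 raised Muc5ac by a log2 fold change of 6.15 (SE 0.24, adjusted p = 2.4e-06), or 70.7 ± 24.2-fold in mean FPKM (propagated SD). With LM8 it was 2.05 times lower than with IL-33 alone, a log2 fold change of -1.04 (SE 0.09, adjusted p = 0.00033, 95% interval from -1.25 to -0.82). It remained 34.5 ± 11.2-fold above PBS. Since -1.04 is close to the minimum of 1, it fell short of that minimum when IL-33 replicate 3 (-0.92) or IL-33+LM8 replicate 3 (-0.99) was left out, although the adjusted p was 0.0011 and 0.0023 in those fits. Muc5ac also fell short with limma on log2(FPKM + 1) (-0.923, adjusted p = 0.00084).

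MUC5B is the mucin that the healthy mouse airway secretes and needs for clearance. Muc5b was already present in PBS mice, at 4.50, 5.69 and 5.03 FPKM, and rose to 19.6, 20.8 and 20.6 FPKM with IL-33. With LM8 it was 20.4, 18.1 and 18.5 FPKM, overlapping the IL-33 mice. The rise with IL-33 was 4.01 ± 0.49-fold, a log2 fold change of 2.00 (SE 0.09, adjusted p = 3.2e-06). The difference between IL-33+LM8 and IL-33 mice was -0.10 on the log2 scale (SE 0.06, adjusted p = 0.28), and its 95% interval from -0.25 to 0.04 does not reach the fall seen for Muc5ac. Only 0.286% of the stretches of 31 bases in Muc5ac transcripts also occur in another gene, most of them in Muc5b, so the 2 genes share little sequence.

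The balance of the 2 mucins differed between the groups. The FPKM of Muc5ac divided by that of Muc5b, a comparison per length within each mouse, was 0.0409, 0.0403 and 0.0231 in PBS mice. It was 0.601, 0.553 and 0.687 in IL-33 mice and 0.315, 0.335 and 0.313 in IL-33+LM8 mice. The group means were 0.0348 ± 0.0101, 0.613 ± 0.068 and 0.321 ± 0.012 (SD, n = 3 each). No group overlapped another in this ratio, and Muc5b was the more abundant mucin in every mouse.

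**Figure D2:**
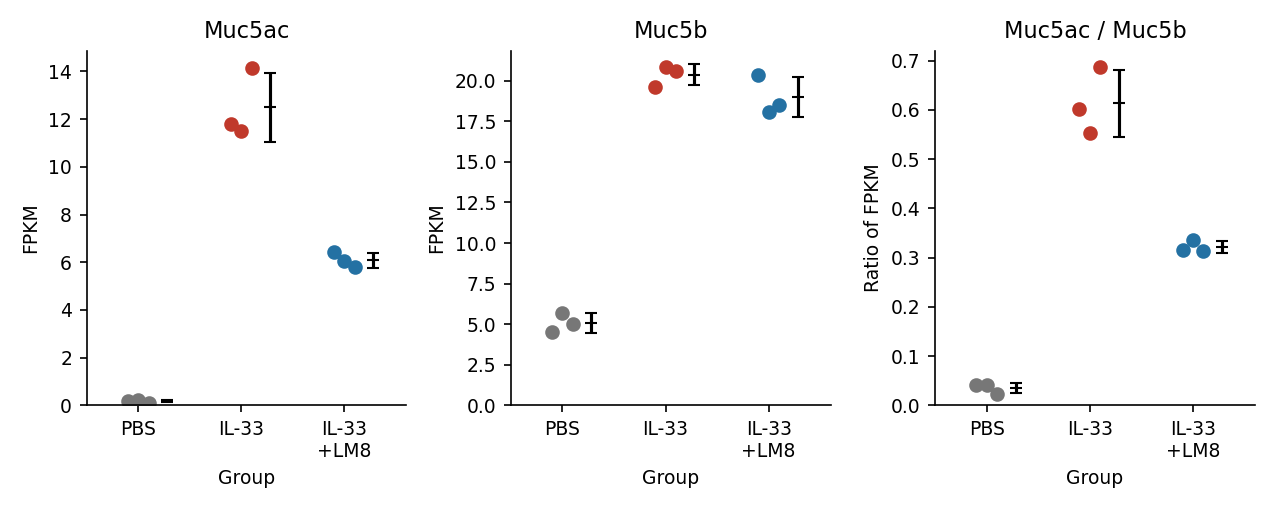
Muc5ac level, Muc5b level (both in FPKM) and their ratio in each of the 9 mice, with group mean and SD as bars. Muc5ac and the ratio are intermediate in IL-33+LM8 mice, at mean ratios of 0.321 against 0.613 with IL-33 and 0.0348 with PBS, while Muc5b overlaps between the IL-33 and IL-33+LM8 groups.

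Fcgbp encodes a large protein with von Willebrand-type domains that is secreted with mucins and becomes part of the mucus gel. It spans 27770661 to 27820287 on chromosome 7, plus strand. Fcgbp was at 0.301, 0.470 and 0.369 FPKM in PBS mice, 9.40, 8.98 and 11.2 FPKM in IL-33 mice, and 8.79, 9.60 and 8.39 FPKM in IL-33+LM8 mice. Its log2 fold change with IL-33 was 4.69 (SE 0.18, adjusted p = 2.2e-06), or 25.9 ± 6.6-fold. The IL-33 and IL-33+LM8 mice overlapped, with a log2 difference of -0.14 (95% interval from -0.37 to 0.09). Of the stretches of 31 bases in Fcgbp transcripts, 12.2% also occur in another gene, most often 9530053A07Rik. This is a larger share than in any of the other 9 genes, so the assignment of reads to Fcgbp is less certain.

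Clca1 encodes a secreted metalloprotease that goblet cells release in large amounts and that processes mucus. It spans 144709578 to 144738537 on chromosome 3, minus strand, and was by far the most abundant of the 10 genes once IL-33 was given. PBS mice had 1.36, 9.40 and 4.36 FPKM, those given IL-33 had 415, 387 and 428 FPKM, and those also given LM8 had 481, 486 and 477 FPKM. By mean FPKM Clca1 ranked 8334 among all genes in PBS mice, 75 after IL-33 and 59 after IL-33 with LM8. It made up between 80.9% and 83.1% of the summed FPKM of the 10 genes in IL-33 mice. Its log2 fold change with IL-33 was 6.35 (SE 0.68, adjusted p = 0.0002). The PBS mice differed widely among themselves, at 5.04 ± 4.06 FPKM (SD, n = 3), and the IL-33 mice little, at 409.9 ± 20.7 FPKM (SD, n = 3). Without PBS replicate 2 the log2 fold change was 7.16.

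Clca1 was not among the genes that were lower with LM8. Every IL-33+LM8 mouse was above every IL-33 mouse, a pattern seen in 21.2% of the genes tested. The log2 difference was 0.23 (SE 0.07, adjusted p = 0.041, 95% interval from 0.07 to 0.39), or 1.17 ± 0.06-fold in mean FPKM, which is under the minimum fold change. The adjusted p was over 0.05 when any mouse but IL-33+LM8 replicate 1 was left out (0.058 to 0.17), with the replicate number as a block (0.16) and in a fit of all 9 mice (0.75), the log2 difference staying between 0.19 and 0.27. Against PBS mice the log2 fold change with LM8 was 6.60 (SE 0.69) for Clca1, 4.56 (SE 0.17) for Fcgbp and 1.92 (SE 0.09) for Muc5b.

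Agr2 encodes a protein disulfide isomerase of the endoplasmic reticulum that is needed to produce mucins. It spans 36042906 to 36054086 on chromosome 12, plus strand. Agr2 was at 0.760, 1.96 and 1.17 FPKM in PBS mice and 17.8, 18.3 and 12.7 FPKM in IL-33 mice. The IL-33+LM8 mice spread widely around these, at 11.9, 35.5 and 23.1 FPKM, replicate 1 falling under every IL-33 mouse and the other 2 above. The rise with IL-33 had a log2 fold change of 3.64 (SE 0.34, adjusted p = 0.00011), or 12.5 ± 6.4-fold. IL-33+LM8 mice were above PBS mice by 4.19 (SE 0.50, adjusted p = 0.0011). Between IL-33+LM8 and IL-33 mice the log2 difference was 0.54 (SE 0.36, adjusted p = 0.33), and single IL-33+LM8 mice moved it both ways, to 0.10 (adjusted p = 0.84) without replicate 2 and to 0.86 (adjusted p = 0.035) without replicate 1.

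Tff1 and Tff2 encode trefoil factors, small cysteine-rich peptides that mucous cells secrete with mucins and that take part in epithelial repair. They are neighbours on the minus strand of chromosome 17, Tff2 from 31360023 to 31363256 and Tff1 from 31380369 to 31384251, with 17112 bases between them. A trefoil domain is held together by 6 cysteines. Coding stretches between the first and last of these, found by the spacing of the cysteine codons in GENCODE M21 transcripts, are shown to let the 2 relatives be compared, with cysteine codons in capitals.
Tff1: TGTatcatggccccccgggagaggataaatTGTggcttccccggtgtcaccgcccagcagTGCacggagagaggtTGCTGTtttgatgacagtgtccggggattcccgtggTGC
Tff2, first domain: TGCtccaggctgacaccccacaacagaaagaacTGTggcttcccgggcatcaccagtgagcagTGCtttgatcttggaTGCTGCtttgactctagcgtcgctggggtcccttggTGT
Tff2, second domain: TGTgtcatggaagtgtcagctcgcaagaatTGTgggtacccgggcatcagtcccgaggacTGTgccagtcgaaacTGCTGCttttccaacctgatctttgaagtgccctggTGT
Tff1 holds 1 such domain and Tff2 holds 2. The Tff1 stretch and the second of Tff2 share 61 of 114 bases, or 53.5%. No stretch of 31 bases was shared between the genes, so the 2 genes are distinct at that length. Tff1 overlaps Gm15318 on the opposite strand, which had at most 5 counts in any mouse.

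No read of Tff1 was counted in any PBS mouse, where a count of 0 allows up to 3 counts per library. IL-33 mice had 209, 272 and 230 counts, or 4.33, 6.18 and 5.80 FPKM, and IL-33+LM8 mice had 47, 145 and 113 counts, or 1.06, 3.17 and 1.70 FPKM. Tff1 was detected in all 6 mice given IL-33 and was lower in each IL-33+LM8 mouse than in each IL-33 mouse. It was at least 87.2-fold higher with IL-33 than with PBS and at least 31.8-fold higher with IL-33+LM8 than with PBS, a bound that covers counting error only. Between IL-33+LM8 and IL-33 mice it was 2.75 times lower in mean FPKM, a log2 fold change of -1.45 (SE 0.40, adjusted p = 0.035, 95% interval from -2.39 to -0.51). The call was fragile. The adjusted p rose to 0.061 without the filter on FPKM, to 0.053, 0.092 and 0.096 without IL-33 replicate 1, 2 or 3, and to 0.057 and 0.1 without IL-33+LM8 replicate 1 or 3 (log2 fold changes from -1.15 to -1.59). Trefoil factors are best known from the stomach, and 3 of 6 genes listed as stomach markers were found in the table. Gkn3, a gastrokine, averaged 2.96 FPKM in PBS mice, 5.0 FPKM with IL-33 and 1.91 FPKM with LM8, and it too was called lower in IL-33+LM8 than in IL-33 mice (log2 fold change -1.39, SE 0.33, adjusted p = 0.018). The pepsinogen gene Pgc averaged 0.913, 0.313 and 0.260 FPKM, and Atp4a, a subunit of the acid pump, had 23 counts in IL-33+LM8 replicate 2 and none in the other 8 mice. Whole lung does not show which cells made Gkn3 and Pgc, so their levels are not a measure of stomach tissue. The part of these genes in the level of Tff1 was not tested.

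Tff2 differed from its neighbour. It was expressed in PBS mice, at 2.57, 10.7 and 4.95 FPKM, and stood at 11.2, 14.2 and 14.6 FPKM in IL-33 mice and 14.3, 30.9 and 21.7 FPKM in IL-33+LM8 mice. PBS replicate 2 came close to the lowest IL-33 mouse. The log2 difference between IL-33 and PBS mice was 1.13 (SE 0.47, adjusted p = 0.075), not called. Without PBS replicate 2 it was 1.82 with an adjusted p of 0.0048, and the same gene was called with DESeq2 (1.14, adjusted p = 0.0098), with limma on log2(FPKM + 1) (1.18, adjusted p = 0.045) and with the replicate number as a block (1.36, adjusted p = 0.03). Tff2 was called higher in IL-33+LM8 than in PBS mice, with a log2 fold change of 1.90 (SE 0.51, adjusted p = 0.03), a call lost without PBS replicate 1 (1.54) or 3 (1.77) and without IL-33+LM8 replicate 2 (1.59) or 3 (1.92). The log2 difference between IL-33+LM8 and IL-33 mice was 0.75 (SE 0.27, adjusted p = 0.086). It was 0.43 (adjusted p = 0.21) without IL-33+LM8 replicate 2 and 0.99 (adjusted p = 0.015) without replicate 1, and DESeq2 gave 0.75 with an adjusted p of 0.014, all under the minimum fold change. The third trefoil gene, Tff3, had at most 3 counts in any PBS mouse and none in IL-33 mice.

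Itln1 encodes intelectin, a secreted lectin that binds microbial sugars and is made by goblet cells in type 2 inflammation. It spans 171345690 to 171362862 on chromosome 1, minus strand. In PBS mice 10 reads were counted in replicate 2 and none in the other 2. IL-33 mice had 624, 639 and 398 counts, or 7.99, 8.93 and 6.19 FPKM, and IL-33+LM8 mice had 192, 371 and 462 counts, or 2.69, 5.03 and 4.30 FPKM. Itln1 was nearly absent without IL-33, and the 3 groups did not overlap. Pooled over mice and scaled by library size, its counts were 183 times those in PBS mice with IL-33 (95% interval 99.2 to 382) and 95.5 times with IL-33+LM8 (51.7 to 199.7), intervals that cover counting error only. All 10 of the PBS reads came from replicate 2. Without that mouse the level was at least 207-fold and at least 107-fold higher, whereas without replicate 1 or 3 the ratio was 125 or 115 with IL-33 and 65.4 or 59.8 with IL-33+LM8. Its log2 fold change between IL-33+LM8 and IL-33 mice was -0.94 (SE 0.26, adjusted p = 0.032, 95% interval from -1.54 to -0.34), just under the minimum. It passed that minimum when IL-33 replicate 3 (-1.07) or IL-33+LM8 replicate 2 (-1.14) was left out. The adjusted p rose over 0.05 without IL-33 replicate 1 (0.085) or 2 (0.097), without IL-33+LM8 replicate 3 (0.071), with no filter on FPKM (0.057) and in a fit of all 9 mice (0.29). Of the stretches of 31 bases in its transcripts, 3.8% also occur in another gene.

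**Figure D3:**
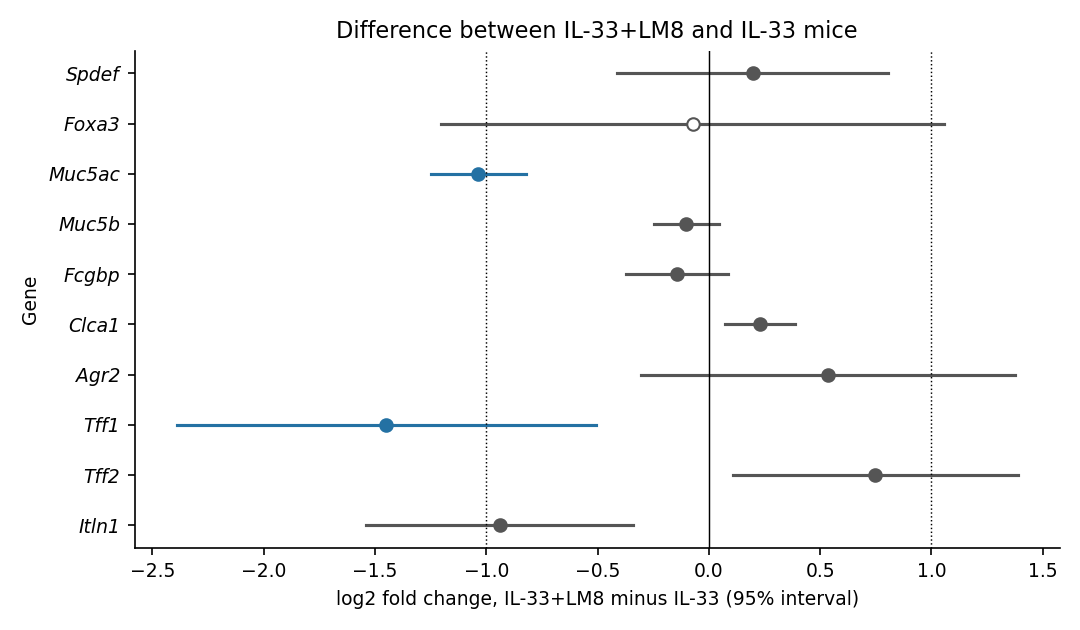
log2 fold change between IL-33+LM8 and IL-33 mice for each of the 10 genes, as the estimate and its 95% interval from edgeR, with the minimum fold change dotted. Blue marks the 2 called genes, Muc5ac and Tff1, and the open point is Foxa3, fitted under edgeR's own filter. The intervals of Muc5b, Fcgbp and Clca1 lie between -0.37 and 0.39, while those of Agr2, Tff2, Spdef and Foxa3 are wide.

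The share of the IL-33 rise that was present with LM8 differed among the genes. It is the FPKM of an IL-33+LM8 mouse minus the PBS mean, divided by the IL-33 mean minus the PBS mean, and it is given as a description. Its SD is over the 3 IL-33+LM8 mice only and leaves out the spread of the PBS and IL-33 mice. For Muc5ac it was 50.7%, 47.8% and 45.6% in the 3 IL-33+LM8 mice, closely alike. It was 19.5%, 58.4% and 31.3% for Tff1 and 34.6%, 65.0% and 55.5% for Itln1. These 3 genes lay under the range of the IL-33 mice in every IL-33+LM8 mouse. Muc5b kept a mean of 91.0% ± 7.9 (SD, n = 3), Fcgbp 90.2% ± 6.5 and Clca1 118% ± 1.1. Spdef (125% ± 38), Foxa3 (92.0% ± 62.7), Agr2 (148% ± 79) and Tff2 (224% ± 115) scattered too widely to be placed.

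**Figure D4:**
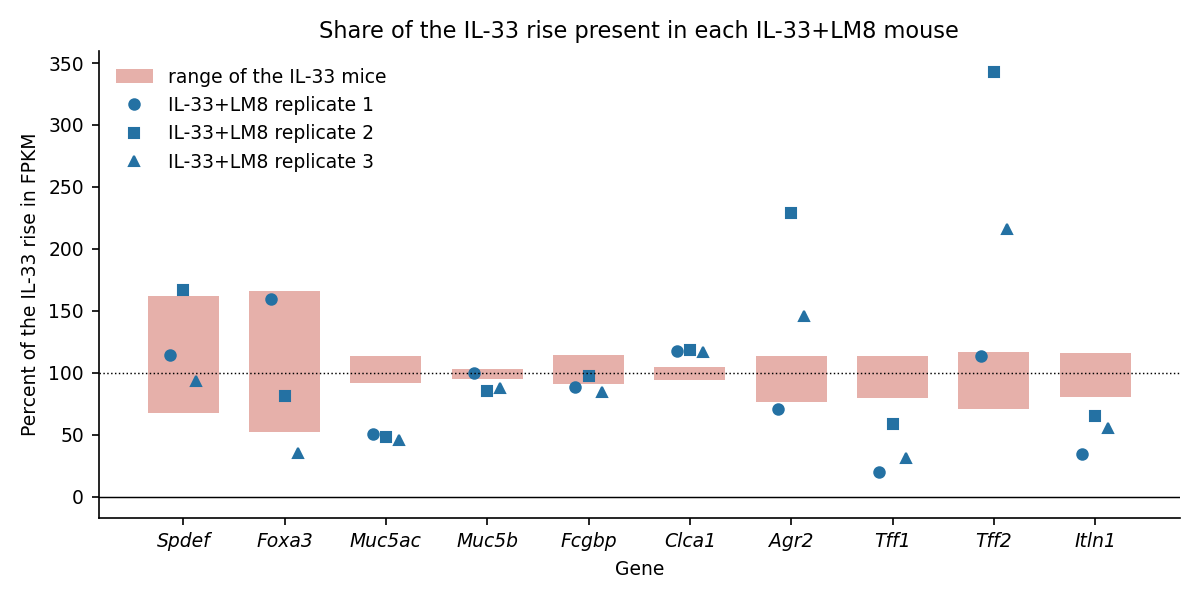
Share of the IL-33 rise in FPKM present in each IL-33+LM8 mouse, in percent, for each of the 10 genes. Points are mice, pink bands span the IL-33 mice, and the dotted line is the IL-33 mean. Muc5ac, Tff1 and Itln1 fall under the band in all 3 mice, Clca1 lies above it, and Agr2 and Tff2 are highest in replicate 2.

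Many of the goblet cell genes were highest in the same mouse of a group. Of the 9 genes with any read in PBS mice, all were highest in PBS replicate 2. Among IL-33+LM8 mice replicate 2 was highest for 7 of 10, whereas the mucins and Foxa3 were highest in replicate 1. In the IL-33 group 6 of 10 were highest in replicate 3 and 4 in replicate 2. The share of all genes that was highest in each mouse was not counted. Whether these counts are particular to the goblet cell genes was therefore not tested. Of 5 genes listed as markers of the upper airways and glands, 4 were highest in PBS replicate 2 and 3 in IL-33+LM8 replicate 2. After IL-33 they were divided among the 3 mice. Bpifa1, an antimicrobial protein of the nose and large airways, was at 26.5, 89.1 and 58.4 FPKM in PBS mice, 41.3, 36.2 and 38.8 FPKM after IL-33, and 33.5, 144 and 83.8 FPKM after IL-33 with LM8. Scgb3a1, a secretoglobin of the larger airways, was highest in replicate 2 of each group. The summed FPKM of the 5 upper airway and gland markers ranged from 309 to 458 in PBS mice, from 215 to 239.8 in IL-33 mice and from 251 to 420.4 in IL-33+LM8 mice, and at most 1 of the 5 was at 0 in any mouse. That sum hides members that moved in opposite directions. Whole lung does not show which cells made Ltf and Lyz1, so the sum is not a measure of glands and upper airway alone. Ltf, the iron-binding lactoferrin, was called higher with IL-33 (log2 fold change 3.22, SE 0.18) and lower in IL-33+LM8 than in IL-33 mice (-1.11, SE 0.24). Lyz1, a lysozyme, was called lower with IL-33 (-2.33, SE 0.15), from 192 to 38.3 FPKM on average, and higher with LM8 than with IL-33 alone (1.11, SE 0.16). The part of these markers in the levels of Agr2, Tff2 and the other genes was not tested. The 9 tracheal cartilage genes summed to between 0.957 and 2.37 FPKM in all mice.

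**Figure D5:**
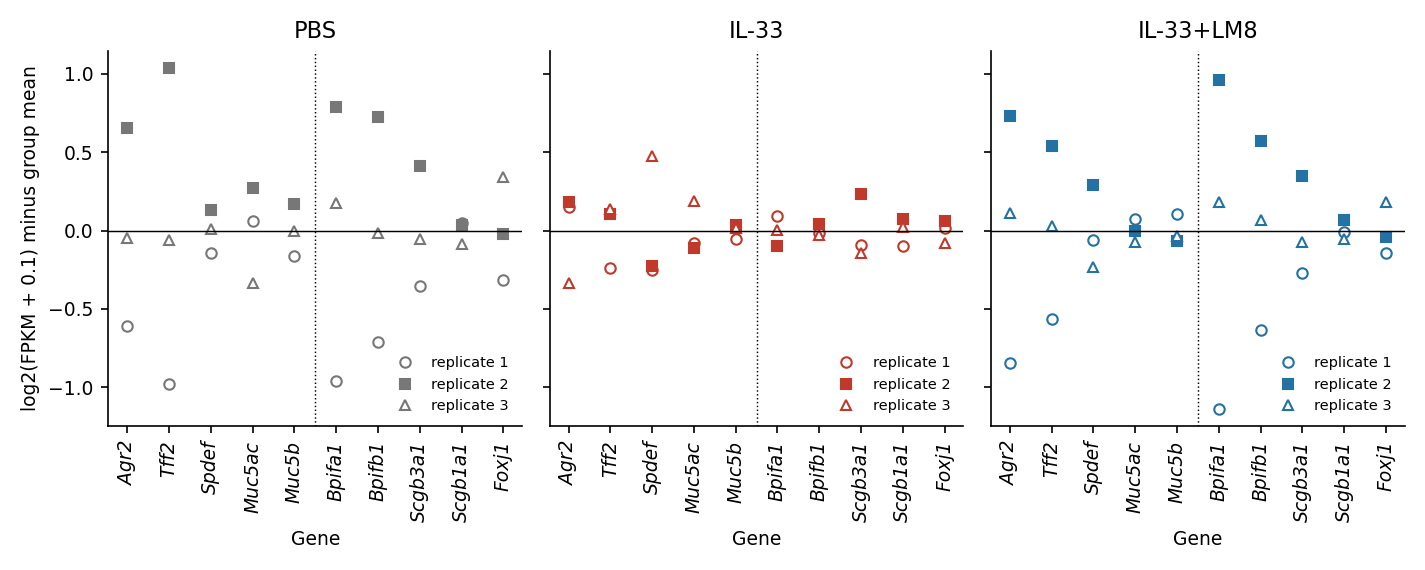
Deviation of each mouse from its group mean, on the log2(FPKM + 0.1) scale, for 5 of the goblet cell genes described here (left of the dotted line) and 5 further airway genes (right). Of the latter, Bpifb1 is itself a product of goblet cells and glands. Filled squares are replicate 2. In the PBS and IL-33+LM8 groups Agr2 and Tff2 are highest in the same mouse as Bpifa1, Bpifb1 and Scgb3a1, while Muc5b varies little.

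Club cell genes moved opposite to the goblet cell genes with IL-33. Scgb1a1, the main club cell secretoglobin, had a log2 fold change of -1.29 (SE 0.09), Scgb3a2 -3.52 (SE 0.10) and Cyp2f2, a club cell cytochrome, -2.57 (SE 0.06), all called lower. With LM8, Scgb3a2 and Cyp2f2 were called higher than with IL-33 alone, by 1.84 (SE 0.10) and 1.31 (SE 0.13), and Scgb1a1 had a log2 difference of 0.96 (SE 0.09). The summed FPKM of 5 club cell markers was 21657 to 23721 in PBS mice, 8464 to 9505 in IL-33 mice and 17086 to 18471 in IL-33+LM8 mice. Between IL-33+LM8 and IL-33 mice the log2 differences of Clca1, Fcgbp and Muc5b were 0.23, -0.14 and -0.10. This pattern was not limited to club cell genes. Of 6 markers of alveoli and vessels 3 were called lower with IL-33, against 6.24% of all genes. These were Sftpc (-1.15, SE 0.07), Hopx (-1.32, SE 0.09) and Cdh5 (-1.08, SE 0.08). Sftpc encodes the surfactant protein C of alveolar type 2 cells, Hopx marks type 1 cells and Cdh5 encodes the endothelial cadherin. Hopx was called higher with LM8 than with IL-33 alone (1.02, SE 0.09), as were 1.46% of all genes. The summed FPKM of the 6 markers was 13204 to 14232 in PBS mice, 6324 to 6571 in IL-33 mice and 11012 to 11789 in IL-33+LM8 mice. Of 5 ciliated cell markers 1 was called lower with IL-33, Tppp3 (-1.51, SE 0.08), and none was called between IL-33+LM8 and IL-33 mice. The other log2 differences with IL-33 were -0.99 for Ccdc39, -0.61 for Rsph1, -0.43 for Dnah5 and -0.03 for Foxj1, and the sum of the 5 was 222 to 248, 110.4 to 121 and 167 to 174 FPKM in the 3 groups. None of 5 markers of all epithelium was called in either comparison. The part of these cell types in the levels of the goblet cell genes was not tested. Whether the goblet and club cell genes moved in the same cells was not tested.

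Of 10 further mucins only 3 were abundant enough to test, and 1 of these was called higher with IL-33, against 10.8% of all genes. This was Muc4, a membrane-bound mucin, which went from 4.51 ± 0.70 FPKM in PBS mice to 12.2 ± 0.4 FPKM (SD, n = 3 each), with a log2 fold change of 1.43 (SE 0.11, adjusted p = 4.6e-05). With LM8 it was lower than with IL-33 alone by less than the minimum, a log2 difference of -0.43 (SE 0.05, adjusted p = 0.0007). Muc1, the most abundant membrane mucin of the lung, had a log2 difference of -0.17 (SE 0.06) with IL-33. Among 12 relatives of the goblet cell genes, 8 were found and 4 tested, and of the 4 Clca3a1 was called higher, by 1.17 (SE 0.14, adjusted p = 0.00039). Clca3a2, a relative of Clca1 left out by the filter on FPKM, was at 0.0229, 0.0586 and 0 FPKM in PBS mice, 0.946, 1.33 and 0.599 FPKM in IL-33 mice, and 0, 0.161 and 0.144 FPKM in IL-33+LM8 mice. Under edgeR's own count filter its log2 fold change was 5.10 with IL-33 (SE 1.01, adjusted p = 0.0059) and -3.19 between IL-33+LM8 and IL-33 mice (SE 1.01, adjusted p = 0.066). Every IL-33 mouse was above every mouse of the other 2 groups. Clca3a1 and Clca3a2 are close relatives, so the split of reads between them is uncertain. Clca2 rose by 2.12 with IL-33 under that filter (SE 0.39, adjusted p = 0.0042) and had a difference of -0.93 with LM8 (SE 0.38, adjusted p = 0.14). None of the 7 genes of both lists that passed the filter on FPKM was called between IL-33+LM8 and IL-33 mice. In that comparison 1.46% of all genes were called higher and 3.93% lower.

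Of 16 other genes of mucus secretion and mucin glycosylation, 11 were tested. With IL-33, 6 were called higher, against 10.8% of all genes, and none lower, against 6.24%. Slc26a4, the anion exchanger pendrin that alkalinizes the airway surface, rose from 0.593 ± 0.107 to 84.3 ± 10.1 FPKM (SD, n = 3 each), with a log2 fold change of 7.14 (SE 0.16, adjusted p = 5.1e-07). Scin, encoding the actin-severing protein scinderin, rose by 4.78 (SE 0.32) and Ern2, the stress sensor IRE1β of mucous cells, by 3.98 (SE 0.26). Bpifb1, a secreted protein of goblet cells and glands, reached 86.6 ± 2.4 FPKM and Pigr, the receptor that exports polymeric antibodies, 69.4 ± 0.3 FPKM. The same number, 6, was called higher in IL-33+LM8 than in PBS mice, against 5.87% of all genes. None of the 11 was called between IL-33+LM8 and IL-33 mice, in which 1.46% of all genes were called higher and 3.93% lower, and their median log2 difference was 0.05. Short of the minimum, Galnt12, which starts mucin O-glycans, differed by -0.75 (SE 0.17, adjusted p = 0.014) and Pigr by 0.44 (SE 0.09, adjusted p = 0.011). Slc26a4, Scin and Ern2 had log2 differences of -0.17 (SE 0.22), 0.15 (SE 0.08) and -0.02 (SE 0.20) in this comparison. Those of Slc26a4 and Ern2 were less precise than those of Muc5b (SE 0.06) and Fcgbp (SE 0.10). Slc26a4 was at 48.7, 90.4 and 85.8 FPKM in the IL-33+LM8 mice, the first of these under the lowest IL-33 mouse (72.6 FPKM).

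Of 17 genes that act upstream of goblet cells, all tested, 5 were called higher with IL-33, against 10.8% of all genes, and 1 lower, against 6.24%. Il13, the cytokine that drives goblet cell formation, had 4 counts over all PBS mice and 570 over IL-33 mice, a ratio of 157 once scaled by library size (95% interval 60.9 to 578, counting error only). Its level with LM8 was 1.93 ± 1.24 FPKM against 2.54 ± 0.40 FPKM with IL-33 (SD, n = 3), a log2 difference of -0.39 (SE 0.43, adjusted p = 0.56). Il4, the other cytokine that signals through STAT6, averaged 0.701 FPKM in PBS mice, 0.991 FPKM with IL-33 and 0.502 FPKM with LM8, the last 2 differing by -0.97 (SE 0.27, adjusted p = 0.034), just under the minimum. Il13ra2, the decoy receptor of interleukin-13, had no read in PBS mice and was at least 111-fold higher with IL-33, and its log2 difference with LM8 was -0.59 (SE 0.37, adjusted p = 0.30). Stat6 itself had a log2 difference of -0.17 (SE 0.04) with IL-33. Il1rl1, the receptor for IL-33, was the only one of the 17 called between IL-33+LM8 and IL-33 mice, where 3.93% of all genes were called lower. It was at 14.4 ± 2.0 FPKM with IL-33 and 5.54 ± 0.23 FPKM with LM8 (SD, n = 3 each), and its log2 fold change was -1.38 (SE 0.11, adjusted p = 0.00021). Il33 rose from 31.6 ± 3.1 to 221 ± 17 FPKM with IL-33 and was 137 ± 40 FPKM with LM8 (log2 difference -0.69, adjusted p = 0.043, under the minimum).

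The genes whose levels ran most alike to the goblet cell genes were sought among 16822 others, by Pearson's r over the 9 mice with the mean standardized level of the 9 tested genes. They were Slc5a1 (r = 0.996), Scin (0.995), Ccl17 (0.993), Gm21762 (0.993) and Naaa (0.992). Such an r is a description, since the 9 mice share the step from PBS to IL-33. Ccl17, a chemokine that attracts T helper cells, was at 7.70 FPKM in PBS mice, 133 FPKM with IL-33 and 149 FPKM with LM8. Among the 9 genes themselves, Fcgbp (0.994) and Clca1 (0.992) lay closest to their common profile, and Tff2 (0.865), Spdef (0.945) and Tff1 (0.959) farthest. That profile contains each of the 9 genes, which raises their r, so these values cannot be set beside those of the other genes.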

How the data were processed

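Total RNA of whole lung from 9 mice was sequenced. A single table deposited by the authors gave, per gene and mouse, raw counts of reads and FPKM, which divides them by gene length and library depth. The submitters' processing notes name Bowtie 0.12.2, HISAT2 2.0, StringTie 1.3.0 and the build mm10, without their roles; the start coordinates of the goblet cell genes in the table were not those of that assembly. Groups came from the sample labels. Counts were tested with edgeR 4.0.16 (R 4.3.3, TMM, quasi-likelihood F test) on the 6 mice of each comparison, over genes averaging 0.5 FPKM or more in the 9 mice and with any count in the 6, with Benjamini-Hochberg adjustment over all genes tested. The SE is the log2 fold change divided by the square root of F. Alternatives used DESeq2 1.42.0, limma 3.58.1, other filters, scalings and pseudocounts, a replicate block, and fits that left out 1 mouse. Scripts were tested on simulated data. Same-numbered mice deviated together in IL-33+LM8 and PBS (r from 0.31 to 0.67 across genes), not in the other comparisons. Mice with different numbers had r from -0.47 to 0.67 over all comparisons, and the labels state no pairing. That mice of a group are separate animals is taken from the labels. Reads carry no molecular identifiers, so limits and intervals of counts cover counting error only. The 10 genes and the lists were chosen with earlier results of these data known. From each list, the 3 called genes with the largest change with IL-33 and the 2 most abundant were named; Galnt12, Tff3, Clca2, Clca3a2, Il4 and the named markers of other cells were picked with their values known.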

Additional observations from a re-analysis of the deposited data

How the results depend on the processing

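No log2 fold change of the goblet cell genes changed sign in any alternative fit, and 377 of 399 kept their call, 16 losing and 6 gaining it. Of genes called between IL-33 and PBS mice, 5 of the goblet cell genes remained with a mean FPKM of at least 5, since the other 3 of the 8 called then went untested. Between IL-33+LM8 and IL-33 mice, 1 was called without an FPKM filter or at 5 FPKM (Muc5ac), 1 with limma on log2(FPKM + 1) (Tff1), and 4 if any fold change sufficed. Leaving out 1 mouse gave 8 to 9, 0 to 3 and 8 to 9 called for IL-33 against PBS, IL-33+LM8 against IL-33 and IL-33+LM8 against PBS. Over all genes, 2865, 907 and 1233 were called, and 2729 to 2918, 780 to 963 and 1073 to 1297 with a mouse left out. Those counts were 1176, 304 and 469 at 5 FPKM, 1741, 439 and 588 with limma on log2(FPKM + 1), and 9193, 4459 and 4997 where any fold change sufficed. With a replicate block, 9, 2 and 9 of the goblet cell genes and 2841, 836 and 1364 of all genes were called, Tff2 between IL-33 and PBS mice being the only call of theirs that changed. The mucin ratio in PBS mice was 0.0536 with 0.1 FPKM added to each gene, and 0.0317 to 0.0406, 0.577 to 0.644 and 0.314 to 0.325 with a mouse left out in the 3 groups. Size factors by median of ratios shifted the median of all genes by at most 0.01. Why these values moved was not tested. Depth limits Foxa3, Tff1 and Itln1, which PBS mice gave few counts or none.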
